A study of Zea mays with 21 samples.

Results

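The 150 genes described here are those whose transcripts were most reduced in the white section of zb10 maize leaves at the V4 stage, out of 50142 gene IDs in the count table. They were chosen from the V4 leaf libraries by the smaller of a pair of log2 ratios, WT over white section and green section over white section, each taken between group means of CPM (a gene's counts scaled to a common library total) after adding 1. This score ran from 3.49 down to 1.19 among the members. The last members inside the limit were Zm00001d039118 (score 1.188; 63.9 CPM in WT, 55.1 in the green and 23.6 in the white section) and Zm00001d039241 (score 1.187; 2.04, 1.75 and 0.206 CPM). Just outside it were Zm00001d029461 (score 1.186; 12.8, 5.17 and 1.71 CPM) and Zea_mays_newGene_5111 (score 1.183; 90.8, 90.9 and 39.4 CPM). Because the V4 libraries chose the members, their V4 levels are given as a description and carry no test. The V9 leaf and endosperm libraries took no part in the choice.

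The study sequenced RNA from wild-type (WT) maize and from the zebra-leaf mutant zb10, described by the series as a loss of function of the plastid terminal oxidase ZmPTOX. The 21 libraries form 7 groups of 3: WT leaf at V4, the green section of zb10 leaf at V4, the white section of the same stage, WT leaf at V9, zb10 leaf at V9, and endosperm of WT and of zb10 at 16 days after pollination. V4 and V9 are the 4th-leaf and 9th-leaf stages, and the labels name no leaf section for V9. The inbred background of either genotype, the number of plants behind a library and whether plants were pooled are not stated in the labels or files used here.

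The plastid terminal oxidase passes electrons from the plastoquinone pool to oxygen in the thylakoid membrane, and so supplies the oxidised plastoquinone that carotenoid desaturation needs. In Arabidopsis, loss of the enzyme in the immutans mutant gives leaves with green and white sectors, in which the white cells hold plastids without normal internal membranes. Zebra mutants of maize show crosswise bands of pale and green tissue along the blade.

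The files give gene IDs without names, and none of the IDs could be matched to the reference table used here, so members are given by ID, no role is assigned to any of them, and leaf and endosperm marker genes could not be looked up. Of the 150 members, 132 carry reference-style IDs and 18 (12%) are unannotated loci with IDs of the newGene form, which make up 21.6% of the table. Library totals ran from 28237880 to 123050963 counts, the highest being WT V9 replicate 1. White section replicate 3 stood apart from the other white libraries by its TMM scaling factor, which was 1.26 against 1.07 and 1.08. This factor adjusts library totals so that most genes stand at similar levels. The CPM levels given here do not use it. In these bulk samples, fewer cells of a type and less RNA per cell cannot be told apart.

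In V9 leaf the reduction seen at V4 was not detected: no member differed between zb10 and WT after adjustment over all genes. Of the 150 members 132 had enough counts to be tested at V9. None was lower and none higher in zb10 (edgeR quasi-likelihood test with Benjamini-Hochberg adjustment, lowest adjusted p = 0.55), where 0.0115% of 26105 genes tested were lower and 0.0345% higher. Before adjustment, 13 members had a p under 0.05, of which 8 were lower (6.06% of those tested, against 3.93% of all genes) and 5 higher (3.79% against 3.08%). With DESeq2, 1 of 138 members was called, against 230 of 29160 genes. In 5 members every zb10 library lay below every WT library (3.79%, with 4.09% over all genes), and in 7 every zb10 library lay above (5.30%, with 10.2% over all genes).

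The median log2 fold change of the tested members at V9 was -0.20, against -0.01 over all genes, and 82 of the 132 had a negative sign (62.1%, against 51.2% over all genes). Their middle range, from the 25th to the 75th percentile, was -0.56 to 0.18. This lean rested partly on 1 library. Without WT V9 replicate 3 the median was -0.03, and 68 of 133 members had a negative sign. The lean was also smaller with the replicate number as a block in the fit. There the median was -0.07, against 0 over all genes, and 75 of 132 members had a negative sign.

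The members with the lowest p at V9 had opposite signs and did not pass. Zm00001d006511 was at 212, 189 and 247 CPM in the WT V9 libraries and at 140, 50.2 and 101 in those of zb10. The ranges did not overlap, with a log2 fold change of -1.21 (SE 0.33, adjusted p = 0.55 by edgeR). It was the member that DESeq2 called (log2 fold change -1.21, SE 0.32, adjusted p = 0.026). Zm00001d014178 was at 37.3, 31.4 and 40.6 CPM in WT V9 and at 50.3, 49.1 and 56.8 in zb10, again without overlap and in the other direction (log2 fold change 0.47, SE 0.13, adjusted p = 0.55 by edgeR). At V4 the same gene had been at 98.1, 87.2 and 87.7 CPM in WT, 78.5, 90.6 and 93.4 in the green section and 37.3, 38.5 and 35.3 in the white section, so its white libraries lay close together and well below the others.

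**Figure D1:**
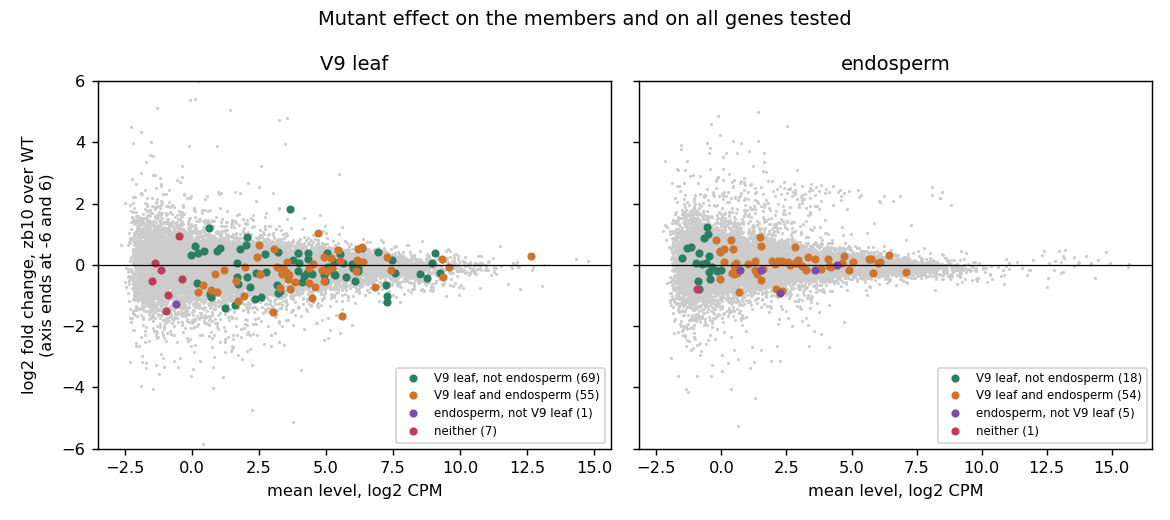
Each point is a gene, with its mean level in log2 CPM on the x axis and its log2 fold change of zb10 over WT on the y axis, in V9 leaf (left) and endosperm (right); grey points are all genes tested and coloured points the members, by where outside V4 leaf they reached 1 CPM. The members lie within the cloud of all genes in both panels, with medians of -0.20 at V9 and 0.06 in endosperm.

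The most abundant members at V9 had similar levels in both genotypes. Zm00001d053675 was at 5173.7, 5724.5 and 6244.8 CPM in WT V9 and at 5844.8, 8835.6 and 6716.7 in zb10, with overlapping ranges (log2 fold change 0.28, SE 0.28, adjusted p = 0.87 by edgeR). Zm00001d006193 was at 685, 791 and 860 CPM in WT and at 618, 967 and 738 in zb10 (log2 fold change -0.05, SE 0.23, adjusted p = 0.97 by edgeR). Zm00001d051403 was at 930, 409 and 925 CPM in WT and at 747, 477 and 520 in zb10 (log2 fold change -0.40, SE 0.31, adjusted p = 0.82 by edgeR). At V4 all 3 had been lower in every white library than in any WT or green library. For Zm00001d053675 the V4 levels were 4333.2, 5677.5 and 3696.9 CPM in WT, 2476.2, 2310.8 and 2825.7 in the green section and 1047.2, 1417.9 and 855 in the white section, so that each section occupied a range of its own.

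In endosperm 78 of the 150 members had enough counts to be tested, and none was called lower or higher in zb10 (edgeR, lowest adjusted p = 0.66), where 0.0158% of 25366 genes tested were lower and 0.0197% higher. Before adjustment 3 members had a p under 0.05, 2 lower (2.56%, against 2.63% of all genes) and 1 higher (1.28%, against 3.16%). DESeq2 called 0 of 91 members and 114 of 30346 genes, with 4 members and 1627 genes at an unadjusted p under 0.05. The median log2 fold change was 0.06, against 0 over all genes, and ran from -0.03 to 0.14 with each library left out in turn. Every zb10 library lay below every WT library in 3 members (3.85%, with 5.16% over all genes) and above in 2 (2.56%, with 5.33%).

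Zm00001d003494, the member of lowest p in endosperm, was at 6.36, 6.71 and 6.22 CPM in WT endosperm and at 3.26, 2.98 and 4.31 in zb10. The ranges were apart, but the difference did not pass (edgeR adjusted p = 0.66, with a log2 fold change of -0.86 and an SE of 0.21). In V4 leaf it had gone from 32.0, 42.0 and 10.3 CPM in WT to 8.69, 0.339 and 2.52 in the green and 0.231, 0.0630 and 0.496 in the white section. There the green section lay below WT in every library, and a single green library fell within the white range. Zm00001d031653 was at 1.67, 1.44 and 2.73 CPM in WT endosperm and at 2.97, 4.17 and 3.72 in zb10 (log2 fold change 0.90, SE 0.29, adjusted p = 0.77 by edgeR), where at V4 it had been at 157 ± 15.1 CPM in WT and 43.8 ± 17.5 in the white section (SD, n = 3).

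The difference of the mutant effect between endosperm and V9 leaf was tested in 1 model over the 12 libraries. Of 137 members tested none passed in either direction (edgeR, lowest adjusted p = 0.55), where 0.0294% of 30640 genes were lower and 0.00979% higher in endosperm. At an unadjusted p under 0.05 there were 4 members lower (2.92%, against 3.52% of all genes) and 7 higher (5.11%, against 4.14%). DESeq2 called 0 of 131 members, against 198 of 28884 genes. Of the 137 members 21 had no count in any endosperm library and entered through their leaf counts, so no mutant effect in endosperm could be measured for them. Among the other 116 the median difference was 0.31 on the log2 scale, against -0.02 over all genes with a count in endosperm. Over all 137 it was 0.29, and 0.06 without WT V9 replicate 3. A count in endosperm did not always make the effect there measurable, since 78 members had passed the filter when endosperm was tested alone. Zm00001d043734, among the 7 higher, had means of 0 CPM in WT and 0.138 in zb10 endosperm. Zm00001d025255, among the 4 lower, had means of 0.0466 and 0 CPM. The medians are therefore a description.

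Outside V4 leaf the members fell into 4 classes by whether their mean reached 1 CPM in either genotype. In V9 leaf but not endosperm 69 members (46.0%) reached it, in both tissues 55 (36.7%), in endosperm but not V9 leaf 5 (3.33%), and in neither 21 (14.0%). Among all 19047 IDs at or above the lowest WT V4 level of a member (2.04 CPM), the same classes held 14.6%, 81.4%, 1.29% and 2.70%. The share present in both tissues was thus lower among the members, and the shares of the other classes were higher. Of the 21 members in the last class 11 were newGene loci, and of the 55 present in both tissues 0 were. No newGene share by class over all IDs is given here, so nothing is read from this split. These classes were drawn after the values were seen and carry no test.

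**Figure D2:**
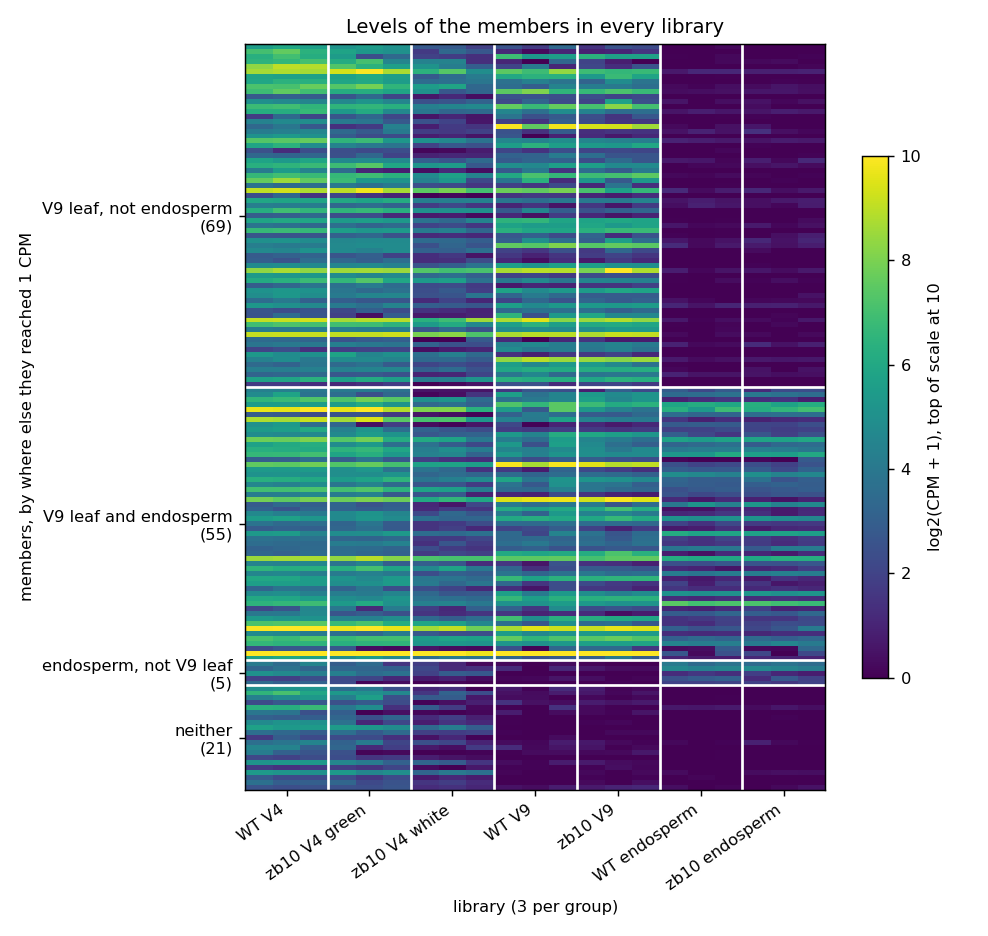
Rows are the 150 members, grouped by where outside V4 leaf they reached 1 CPM and ordered by score within a class, and columns are the 21 libraries, 3 per group; colour gives log2(CPM + 1), cut at 10. The white-section columns are darker than the WT and green V4 columns for most members (every white library was the lower in 129 of 150), while V9 columns of WT and zb10 look alike in each class and the 69 members of the top class are near 0 in endosperm.

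Levels in endosperm were set against those in V9 leaf within each genotype, for members that had been chosen for a level in leaf. Of the members with at least 10 counts in every library of both tissues, 35 of 59 in WT were lower in endosperm (59.3%, against 36.5% of the 19005 genes passing the same limit) and 9 higher (15.3%, against 35.7%; edgeR with Benjamini-Hochberg adjustment). In zb10, 36 of 62 were lower (58.1%, against 35.7% of 18941 genes) and 17 higher (27.4%, against 35.3%).

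Over every member tested, 95 of 128 were lower in WT endosperm (74.2%, against 39.0% of 28157 genes) and 15 higher (11.7%, against 37.5%). In zb10, 94 of 131 were lower (71.8%, against 38.7% of 28308 genes) and 22 higher (16.8%, against 36.4%). These wider counts are a description, since the filter on low counts shapes them. In WT 60 of the tested members (46.9%, against 16.1% of all genes) had at least 10 counts in every V9 library but not in every endosperm library, and in zb10 63 (48.1%, against 18.1%), so that these entered through their leaf counts. Of 127 members tested in both genotypes, 90 were lower in both, 15 were higher in both and 0 were called in opposite directions. No matching counts over all genes are given here, so this agreement is not read as particular to the members. When libraries were scaled by their totals alone, the median log2 fold change over all genes moved from -0.02 to -0.30 in WT and from -0.05 to -0.35 in zb10. The members called were then 96 lower and 10 higher in WT and 97 and 21 in zb10. All genes called were 12293 lower and 9090 higher of 28157 in WT, and 12503 and 8710 of 28308 in zb10.

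Several members were abundant in leaf and had no count in WT endosperm. They passed the filter through leaf alone, so their levels are given with no p. Zm00001d044194 was at 193, 108 and 198 CPM in WT V9 leaf and 0 in the 3 WT endosperm libraries, at least 6233-fold lower by the floor of 3 counts over the group. In zb10 endosperm it was at 0.267, 0 and 0 CPM. Zm00001d039118 was at 80.4, 72.9 and 73.8 CPM in WT V9 and 0 in all 6 endosperm libraries, at least 2835-fold lower in WT. Zm00001d004380 was at 46.4, 84.6 and 47.4 CPM in WT V9 and 0 in WT endosperm, at least 2226-fold lower. It was at 0.0802, 0 and 0 CPM in zb10 endosperm. The fold bounds cover counting error only. At V4 the 3 genes were clearly present in the white section, at 22.1 ± 3.13, 16.8 to 35.1 (the 3 libraries of Zm00001d039118) and 4.42 ± 1.38 CPM (SD, n = 3) in that order.

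Low counts of leaf-abundant members in endosperm varied by library. Of 120 members at 1 CPM or more in WT V9, 56 had a WT endosperm mean under 1% of that level. Summed over these 56, WT endosperm held 25.9, 11.3 and 22.3 CPM by library and zb10 endosperm 20.8, 13.7 and 40.5, against 11684.8 to 16196.8 CPM in V9 leaf. Replicate 2 had the lowest sum of each genotype. Of the 32 such members with a count in WT endosperm, 29 were lowest or tied for lowest in WT replicate 2. Ties at 0 are in that count, as for Zm00001d028675 at 0, 0 and 0.163 CPM. WT replicate 2 also had the lowest total of the WT endosperm libraries, at 33394194 counts. Zm00001d053675 shows it, at 5.36, 0.180 and 4.59 CPM in WT endosperm and 3.42, 0 and 3.48 in zb10. Whether such low values come from endosperm cells was not tested.

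Fewer members had the opposite pattern. Zm00001d017545 was at 15.9, 9.82 and 13.0 CPM in WT endosperm and at 0.179, 0 and 0.262 in WT V9 leaf, yet was present in WT V4 leaf at 17.1, 10.5 and 21.9 CPM. It and the next genes passed the filter through endosperm, and so are given with no p. Zm00001d024885 had 0 counts in WT V9 and was at 3.0, 2.81 and 3.17 CPM in WT endosperm, at least 197-fold higher. Zea_mays_newGene_9714 likewise had 0 counts in WT V9 and was at 1.44, 2.04 and 1.54 CPM in WT endosperm, at least 110-fold higher. In V4 leaf these last genes were at 8.35 ± 1.54 and 25.1 ± 6.74 CPM in WT and 0.0315 ± 0.0545 and 5.14 ± 1.98 in the white section (SD, n = 3).

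**Figure D3:**
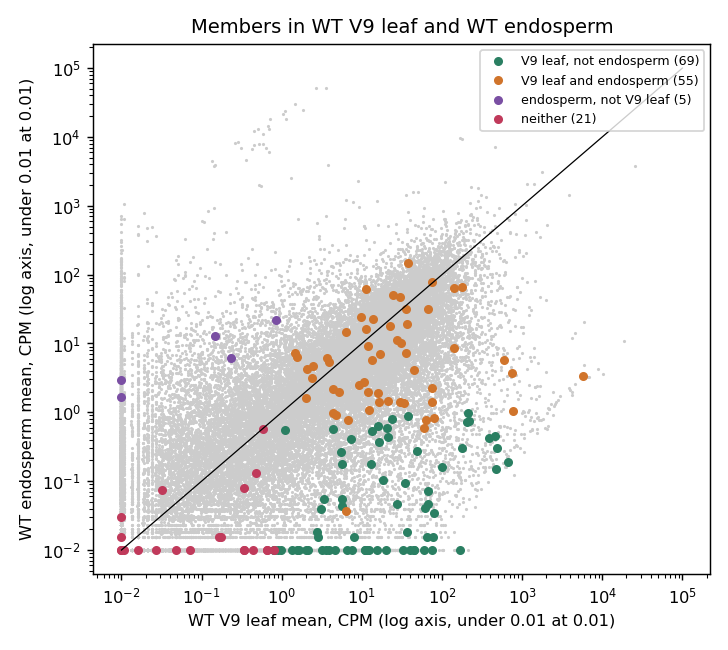
Each point is a gene, with its mean CPM over 3 WT V9 leaf libraries on the x axis and over 3 WT endosperm libraries on the y axis, both on log axes with values under 0.01 drawn at 0.01; the line marks equal levels, grey points are all IDs and coloured points the members. Most members lie below the line, and the 5 members of the purple class lie above it.

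The members most abundant in endosperm were present in leaf too, and the ranges of WT and zb10 endosperm overlapped in each of the 3 named here. Zm00001d037278 was at 172, 123 and 144 CPM in WT endosperm and 143, 121 and 110 in zb10. It was higher there than in WT V9 leaf, at 33.3, 34.2 and 45.7 CPM (edgeR adjusted p = 2.3e-05, with a log2 fold change of 2.24 and an SE of 0.18). Zm00001d038972 was at 70.4, 63.3 and 62 CPM in WT endosperm and 61.4, 75.8 and 73.1 in zb10, lower than the 172, 179 and 187 CPM of WT V9 leaf (edgeR adjusted p = 6.3e-05, with a log2 fold change of -1.18 and an SE of 0.12). Zm00001d016588 was at 77.6, 40.0 and 116 CPM in WT endosperm and 71.6, 95.2 and 124 in zb10. Its WT V9 levels of 43.1, 5.85 and 174 CPM spanned the endosperm range (adjusted p = 0.73 by edgeR). In V4 leaf it was among the strongest members, at 885 ± 157 CPM in WT, 823 ± 381 in the green and 207 ± 109 in the white section (SD, n = 3).

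The V4 levels that chose the members covered a wide range. Member means in WT V4 leaf ran from 2.04 to 4569.2 CPM with a median of 28.6, and 113 members were at 10 CPM or more. The median was 18.3 CPM in the green section and 5.70 in the white section. The white mean was under 1 CPM in 25 members, but no member was without a count in all 3 white libraries. Together the members held 1.55%, 1.80% and 1.61% of the counts of the WT V4 libraries, 1.21%, 1.44% and 1.05% in the green section and 0.417%, 0.506% and 0.318% in the white section.

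Zm00001d047779 had the highest score and stood alone. It was at 19.3, 18.9 and 14.9 CPM in WT, 16.0, 17.6 and 12.7 in the green section and 0.461, 0.441 and 0.496 in the white section. The white libraries agreed closely and lay far below the others. At V9 it was at 2.11, 5.33 and 4.26 CPM in WT and 0.791, 7.18 and 3.56 in zb10, and in endosperm at 6.58, 3.47 and 6.06 in WT and 1.31, 3.75 and 4.13 in zb10, so that the ranges of the genotypes overlapped in both.

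Several other members of high score were already well below WT in the green section. Zm00001d015053 was at 128, 195 and 83.7 CPM in WT, 54.3, 38.5 and 31.8 in the green and 2.28, 9.29 and 5.6 in the white section. The gene with the next ID number, Zm00001d015054, was at 92.9, 134 and 59.4, then 39.8, 32.4 and 24.2, then 1.99, 8.09 and 4.11 CPM. In both genes replicate 2 was the highest and replicate 3 the lowest WT library, and replicate 2 was the highest and replicate 1 the lowest white library. Across the 21 libraries their log2(CPM + 1) levels correlated at r = 0.99. At V9 both were near 0, at 0.809 ± 0.545 and 0.432 ± 0.256 CPM in WT and 1.29 ± 0.554 and 0.392 ± 0.223 in zb10 (SD, n = 3), and neither had a count in endosperm. Zea_mays_newGene_17368 followed the same order, at 28.7, 33.9 and 36.6 CPM in WT, 10.7, 15.6 and 4.41 in the green and 1.10, 1.54 and 0 in the white section, with at most 1.36 CPM in any V9 library.

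Zm00001d028675 and Zm00001d005742 kept more of their level in the green section. Zm00001d028675 was at 46.7, 60.5 and 49.3 CPM in WT, 34.3, 44.2 and 32.1 in the green and 6.0, 6.20 and 2.73 in the white section. Zm00001d005742 was at 88.5, 97.9 and 130, then 70.6, 131 and 22.3, then 20.9, 21 and 1.56 CPM, and its lowest green library lay just above its highest white one. Both were much lower at V9 than at V4, at 5.58 ± 3.58 and 3.36 ± 4.89 CPM in WT V9 (SD, n = 3).

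A further pair of high score had overlapping ranges in WT at V4 and V9. Zm00001d011079 was at 77.6, 123 and 73.2 CPM in WT V4, 43.5, 4.13 and 9.42 in the green and 2.97, 2.52 and 1.52 in the white section. At V9 it was at 114, 38.7 and 46.1 CPM in WT and 83.8, 51.4 and 52.1 in zb10. Zm00001d019060 was at 27.2, 54.1 and 13.2 CPM in WT V4, 11.2, 4.41 and 9.34 in the green and 0.115, 0.315 and 1.84 in the white section. It was at 48.9, 12.6 and 21.9 CPM in WT V9 and 40.3, 26.7 and 35 in zb10, and unlike the other gene it was present in every endosperm library, at 10.3 to 15.3 CPM. Of the 8 members of highest score all were tested at V9, with a lowest adjusted p of 0.82 (edgeR).

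**Figure D4:**
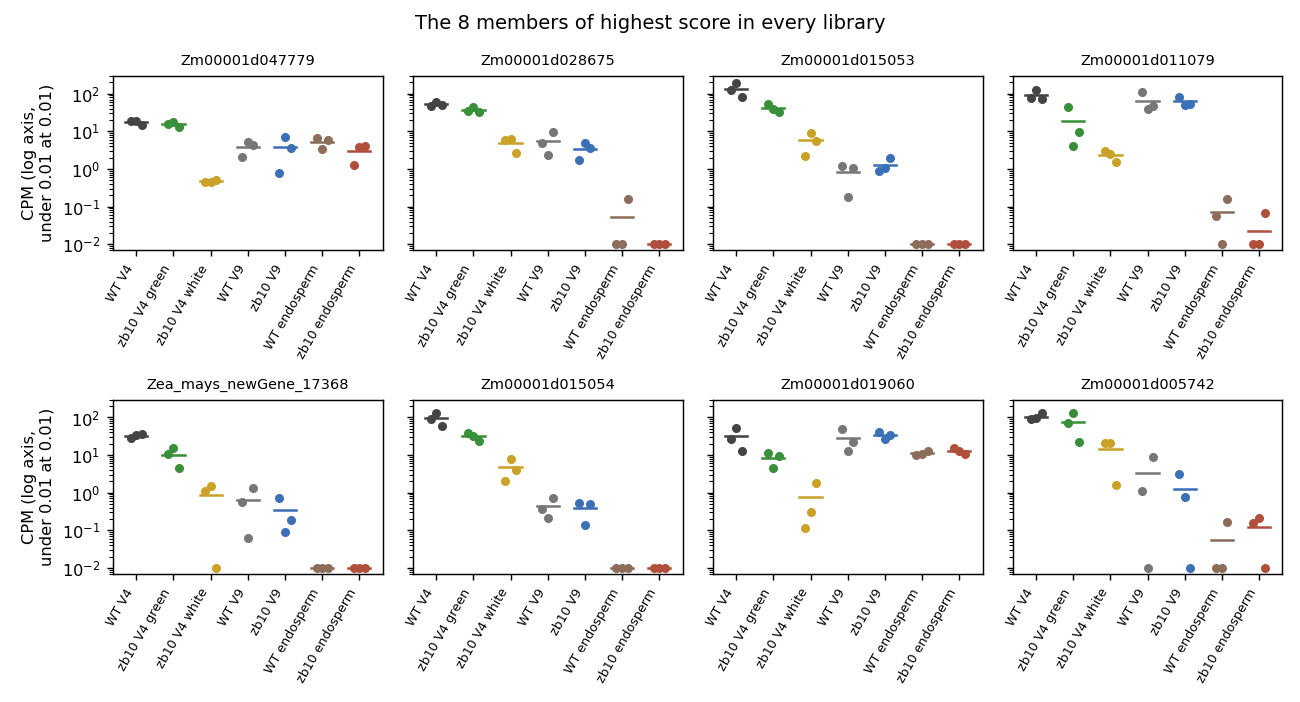
Each panel is 1 of the 8 members of highest score, with CPM on a log axis (values under 0.01 drawn at 0.01); points are the 3 libraries of each group and bars the group means. White-section points lie below the WT and green points in every panel, and the V9 points of WT and zb10 overlap in each.

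The white libraries differed in how low the members were. In 149 of the 150 members every white library lay below every WT library (99.3%, against 16.4% of the 22957 IDs at 1 CPM or more in a V4 group), and in 129 every white library also lay below every green library (86.0%, against 8.60%); the rule used these values, so nothing is read from the shares. The exception against WT was Zm00001d035037, named after its values were seen. In the 21 members whose white and green ranges overlapped, the lowest green library was replicate 3 in 13, replicate 2 in 6 and replicate 1 in 2. The median member stood at 20.5%, 22.7% and 17.4% of its WT V4 mean in white replicates 1, 2 and 3, and at 76.3%, 86.4% and 67.0% in the green replicates. White replicate 3 was the lowest of the 3 in 83 members and the highest in 37.

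Among the 3 V4 groups, spread between replicates was widest in the white section. The median coefficient of variation of the members was 16.8% in WT V4, 28.1% in the green and 42.4% in the white section, where all IDs at 1 CPM or more in a V4 group had medians of 10.7%, 13.8% and 17.2%. Zm00001d031428 was at 6.57, 2.46 and 0.177 CPM in the white section, a 37.1-fold range, and at 15.5, 28.1 and 1.58 in the green section, with replicate 3 lowest in both. Zm00001d035659 was at 0, 0 and 6.06 CPM in the white section, so that its white mean came from replicate 3 alone, against 8.45 to 10.4 CPM in WT.

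**Figure D5:**
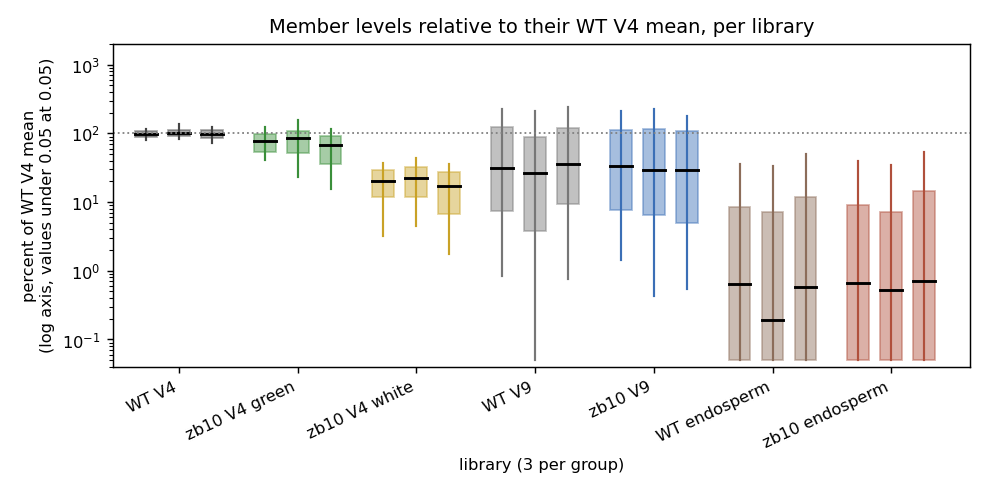
For each of the 21 libraries the plot gives the level of the 150 members as a percent of each member's WT V4 mean on a log axis; the black line is the median, the box the 25th to 75th and the whisker the 10th to 90th percentile, with values under 0.05 drawn at 0.05. The white libraries have medians of 17.4% to 22.7%, the V9 libraries of both genotypes 26.7% to 36.4%, and the endosperm libraries under 1%.

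The green section stood between WT and the white section for most members. Its mean was below WT in 109 members and above it in 41, with a median log2 ratio of green over WT of -0.31 against 0.01 over the 22957 IDs at 1 CPM or more in a V4 group. In 32 members (21.3%, against 2.35% of those IDs) the green mean was under 50% of WT. Every green library lay below every WT library in 52 members (34.7%, against 10.1%) and above in 3 (2.0%, against 10.6%). Both groups entered the rule, which asks for a green level over the white one, so these ratios are a description.

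WT leaf itself had less of most members at V9 than at V4. The WT V9 mean was more than 8-fold below the WT V4 mean, after adding 1 CPM to each, in 36 members (24.0%, against 1.91% of the 19047 IDs at or above the lowest member level), and within 2-fold in 49 (32.7%, against 78.7%). The median log2 ratio of V9 over V4 was -1.47, against 0.07 over the 23033 IDs at 1 CPM or more in either group. In 56 members the WT V9 mean was at or below the white-section mean (37.3%, against 56.9%). The members were chosen for being high in these same WT V4 libraries, so these ratios carry no test. For the 21 members under 1 CPM at V9 and in endosperm, the V4 libraries held from 77.1% to all of a member's counts, with a median of 98.6%. The locus Zea_mays_newGene_23538, for instance, was at 51.2, 41.2 and 42.6 CPM in WT, 43.8, 36.9 and 28.1 in the green and 9.83, 17.9 and 6.83 in the white section, with 0 counts in all 12 V9 and endosperm libraries.

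Rises from V4 to V9 of more than 8-fold were seen in 3 members, named after their values were seen. Zm00001d018738 went from 9.41, 14.3 and 5.71 CPM in WT V4 to 955, 189 and 871 in WT V9, and was at 663, 637 and 383 in zb10 V9. In the white section at V4 it was at 0.807, 2.24 and 1.84 CPM. Zm00001d038199 went from 19.8, 28.5 and 14.9 to 324, 482 and 360 CPM in WT, with 346, 288 and 361 in zb10 V9. Zm00001d044723 went from 18.2, 16.4 and 16.7 to 190, 163 and 265 CPM in WT, with 163, 191 and 175 in zb10 V9. In all 3 the V9 ranges of the genotypes overlapped.

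Some members had ID numbers close to each other, at most 10 apart, in 7 neighbouring pairs. Their positions were not analysed here, and near-identical copies, between which reads may be split, cannot be told from separate genes. Zm00001d031372 and Zm00001d031381 correlated at r = 0.99 over the 21 libraries on the log2(CPM + 1) scale, Zm00001d051088 and Zm00001d051094 at 0.98, and Zea_mays_newGene_23102 and Zea_mays_newGene_23103 at 0.97. Closeness did not always go with a like pattern. Zm00001d024885 and Zm00001d024886 correlated at 0.61, and Zm00001d029356 and Zm00001d029365 at 0.14. Zm00001d029365 and Zm00001d029366 correlated at -0.42, the former at 71.0, 54.9 and 58.0 CPM in WT endosperm and the latter at 1.17, 1.26 and 2.0. Their white-section means were 11.0 and 6.18 CPM, against 35.3 and 19.7 in WT V4. A lower white mean was required of every member by the rule. These correlations are descriptions over libraries that share tissue and stage.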

How the data were processed

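RNA was measured in 21 libraries of WT and zb10 maize; per the labels' protocols it was extracted with a column kit and prepared with a SMARTer mRNA kit. The authors deposited raw counts per gene ID in 1 table. Aligner, counter, build and strand setting were not given in the sources used here. Columns were matched to samples by name (the table writes zb9 and 3L where the labels write zb10 and V4), and 0 columns were left over. Libraries are biological replicates per the series design.

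CPM are counts over the column total. Tests used edgeR 4.0.16 in R 4.3.3 (TMM, filterByExpr at a minimum of 10 counts and 15 in total, adjusted p under 0.05 over all genes), fitted on the compared groups and tested on simulated data; DESeq2 1.42.0 was an alternative, with others for scaling, filter, libraries and a replicate block. No pair of replicates agreed within sampling noise. Library totals of 28237880 to 123050963 counts set the sampling noise only. Differences between replicates went beyond it, so precision was not set by the totals alone.

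The members and lists were chosen with earlier results of these data known. Named members are the 8 of highest score, the 4 IDs around the limit, those of lowest p at V9 and in endosperm, of largest change between tissues, of highest level, and of widest white range; others are said to be named after their values were seen. Gene lists by symbol were not used, since 0 IDs matched the reference table.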

Additional observations from a re-analysis of the deposited data

How the results depend on the processing

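No member was called for zb10 against WT in endosperm, or for the difference between tissues, in any of the 13 and 19 alternatives. At V9 the count was 0 in 12 of 13 alternatives and 1 with DESeq2. With each library left out in turn it stayed 0, while the median ran from -0.27 to -0.03. Members called between tissues, both directions together, numbered 110 of 128 in WT (106 to 123 over the alternatives) and 116 of 131 in zb10 (108 to 122). Most genes were called as well, 21545 of 28157 in WT and 21262 of 28308 in zb10, so these totals are not read as particular to the members. Over all genes, calls at V9 numbered 12, against 230 with DESeq2, 66 with all 21 libraries in the fit, 23 with every gene that had a count, 3 with the replicate block and 5 to 146 with a library left out (146 without WT V9 replicate 2). In endosperm they were 9, against 114, 11, 27, 3 and 0 to 13 in the same order, and for the difference between tissues 12, against 198, 22, 14, 5 and 8 to 16. The replicate block left the members called at 0 in each of these and at 113 in WT and 115 in zb10 between tissues. It moved the median of the members at V9 to -0.07. Same-numbered libraries of WT and zb10 correlated in their deviations from the group mean at 0.24, 0.08 and -0.11 at V9 and at -0.01, 0 and 0.06 in endosperm. Not every library correlated best with its own number. With 3 libraries per group these values cannot decide whether same-numbered samples were collected together, so pairing is unknown. The membership depended more on its rule: 143 of the 150 stayed with TMM-scaled CPM, 131 with a pseudocount of 0.5, 111 with group medians and 99 with a pseudocount of 5. Leaving out a V4 library kept 103 to 148 members, the fewest without white replicate 3. All 8 members of highest score stayed in each case. The causes were not tested. At 3 libraries per group, changes smaller than the spread of low members could not be detected.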

Other observations

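Zm00001d017270, a member named after its values were seen, was at 6.20 CPM in zb10 endosperm replicate 3 but at 0.134 and 0 in the other zb10 endosperm libraries and at 0.111, 0 and 0 in those of WT; it is counted among the members present in both tissues through that library alone. Its V9 levels were 7.97, 3.91 and 6.95 CPM in WT and 6.82, 4.68 and 4.11 in zb10.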
